A study of Mus musculus with 9 samples.

Results

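10 genes of the TGF-beta pathway were followed in C1498 cells carrying hairpins against Zeb1: the ligands Tgfb1, Tgfb2 and Tgfb3, the receptors Tgfbr1 and Tgfbr2, the signal carriers Smad2, Smad3 and Smad4, and the inhibitors Smad7 and Skil. They were chosen by name as the core of the pathway, with no measured value in the rule, though earlier results of these data were known. All 10 were measured, each by 1 probe set, among 19572 probe sets with 1 gene symbol. C1498 is an established mouse line described as acute myeloid leukaemia. The cells had been infected with lentivirus that carried green fluorescent protein and 1 of 3 constructs: a negative control (SCR), or 1 of 2 hairpin RNAs targeting Zeb1, from sequence C (ZEB C) or sequence D (ZEB D). Fluorescent cells were isolated 2 weeks later and their total RNA was hybridised to arrays of 1 colour, 3 arrays per group, so every group shared the vector, the fluorescent protein and the selection. The title of the study concerns how Zeb1 in leukaemic cells shapes T cell activity and Th17 cells in the bone marrow, and Tgfb1 is a cytokine that acts on both.

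TGF-beta ligands are secreted in a latent form and, once released, bind a type II receptor that phosphorylates a type I receptor. The active type I receptor phosphorylates Smad2 and Smad3, which join Smad4 and enter the nucleus, where they switch target genes on or off. Smad7 and Skil restrain the pathway and are themselves among its targets. In the immune system Tgfb1 holds back effector T cells and, with inflammatory cytokines, takes part in Th17 differentiation. Zeb1 is a zinc finger repressor of the epithelial programme that binds CACCT motifs and can also bind receptor-activated SMAD proteins.

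The targeted gene was read first. Zeb1 stood at 10.52, 10.29 and 10.56 (log2 signal) on the SCR arrays, at 10.41, 10.01 and 10.34 on the arrays labelled ZEB C, and at 9.56, 9.26 and 9.40 on the ZEB D arrays. The ZEB D values all lay below the SCR values, whereas those labelled ZEB C overlapped them. Zeb1 fell by 1.05 ± 0.16 (log2 difference ± SE, n = 3 and 3) to 48.3% of SCR in ZEB D, with an adjusted p of 0.0263 by limma. This call was lost in 5 of 9 fits that left out 1 array, at limma adjusted p-values of 0.0941 without SCR #7, 0.0502 without #8, 0.157 without #9, 0.0835 without ZEB D #14 and 0.123 without #15. In the arrays labelled ZEB C it was at 86.9% of SCR, a log2 difference of -0.20 ± 0.16 with a limma adjusted p of 0.895. Every difference given below for the arrays labelled ZEB C comes with a Zeb1 level that limma did not separate from that of SCR.

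The arrays had medians of 6.97 to 7.16 and correlated across probe sets at 0.9777 to 0.9949 within groups and 0.9684 to 0.9889 between them. The first principal component of the deviations from the group means held 57.9% of the variance within groups. It put SCR #7 and #9, ZEB C #10 and #11 and ZEB D #13 on one side, the first set, and the other 4 arrays on the other. The split is drawn from the same values, so a fit with the set as a covariate takes away spread that defined it. ZEB D has only #13 in the first set, so its values over that set alone rest on 1 array. ZEB C #12 stood apart: 194 of 19572 probe sets (0.991%) lay over 1 log2 unit above all 8 other arrays, against 1 to 26 on any other array. Of the 10 myeloid and haematopoietic markers looked at, 3 (Ptprc, Mpo and Fcgr3) had a mean above the median level of 7.06, while Spi1 ran from 5.00 to 5.72, Cebpa from 5.92 to 6.34 and Csf1r also lay below it. Fcgr3, an Fc receptor of myeloid and natural killer cells, was at 12.19, 11.75 and 11.68 in SCR, 7.80, 7.87 and 7.66 on the arrays labelled ZEB C and 10.93, 10.99 and 11.37 in ZEB D. It fell by 4.10 on the log2 scale in the arrays labelled ZEB C (limma adjusted p 5.6e-05). 4 of 6 measured T cell markers lay above it, namely Cd3g at 15.38 to 15.71, Cd3e at 13.41 to 15.32, Cd3d and Cd4, whereas Cd8a and Cd5 lay below it. The markers read here thus did not follow the leukaemia label, and the cells are called C1498 without a lineage.

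None of the 10 members passed limma's test in any comparison (adjusted p under 0.05 over all probe sets), where 0.945% of probe sets passed for the arrays labelled ZEB C against SCR, 0.843% for ZEB D against SCR and 0.848% for ZEB D against the arrays labelled ZEB C. At an unadjusted p under 0.05, 2 members were higher in the arrays labelled ZEB C than in SCR (8.77% of all probe sets met it), 3 were lower in ZEB D than in SCR (13.6%), and 3 were lower in ZEB D than in the arrays labelled ZEB C (11.7%). The 2 members on the arrays labelled ZEB C were the receptors Tgfbr1 and Tgfbr2, and the 3 in ZEB D against SCR were Tgfb1, Smad3 and Skil. All 5 had a difference of the same sign with the other hairpin, and in the direct comparison of the hairpins none of them passed limma's test. The 3 arrays lay wholly beyond SCR for 2 members in the arrays labelled ZEB C and for 2 in ZEB D, shares to be read beside 14.2% and 17.0% of all probe sets. The median log2 difference over the members was 0.01 for the arrays labelled ZEB C, -0.03 for ZEB D and -0.31 for ZEB D against the arrays labelled ZEB C, beside 0.00, 0.04 and 0.04 over all probe sets. Both hairpins were compared with the same 3 SCR arrays, so their differences from SCR are not independent.

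**Figure D1:**
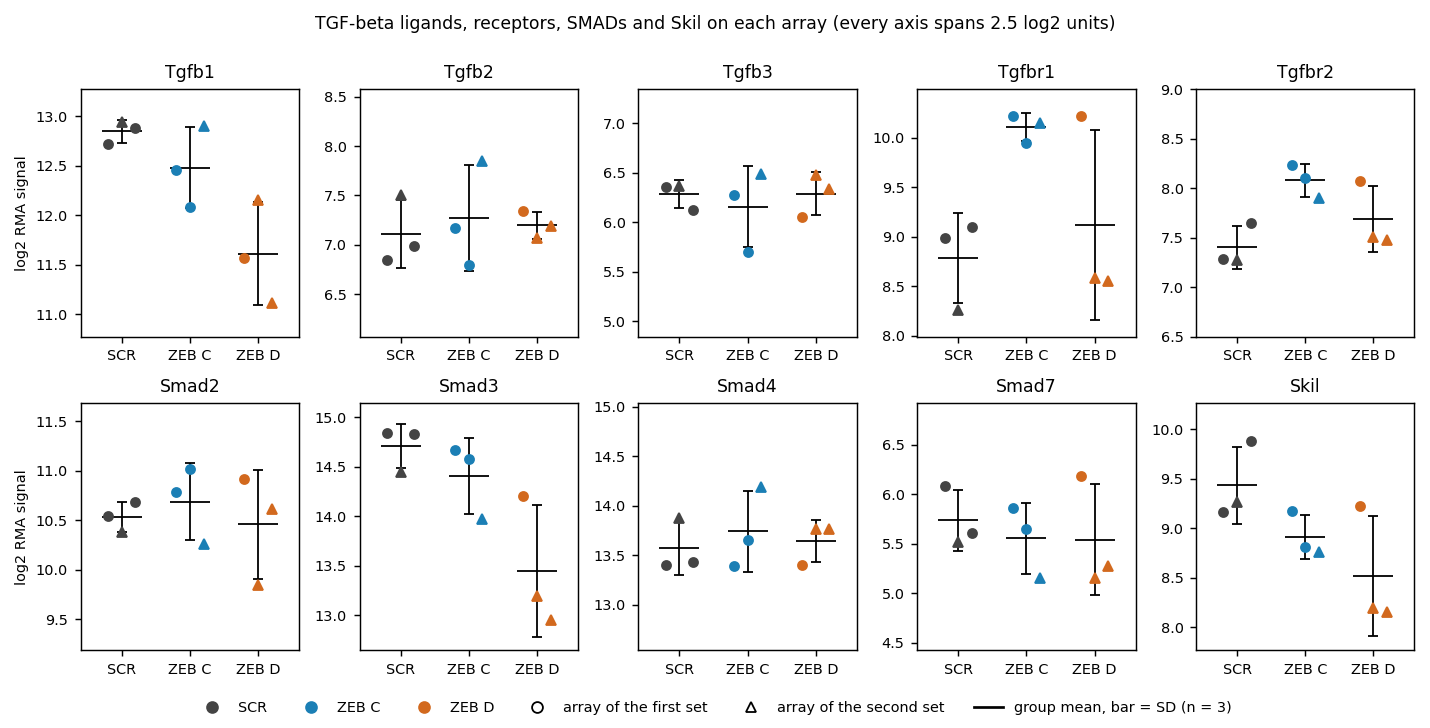
Log2 signal of the 10 members on each of the 9 arrays (circles for the first array set, triangles for the second), by group, with the mean (horizontal line) and SD (vertical bar, n = 3). The ZEB D points of Tgfb1 and Smad3 all lie below SCR, and the ZEB C points of Tgfbr1 and Tgfbr2 all lie above it.

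The upstream sequences of the 4 members whose arrays separated from SCR are shown because Zeb1 is a DNA-binding repressor. Each is the 250 bases before the start site on the gene's strand, from the RefSeq promoter table of assembly GRCm38.p6: Tgfb1 at chr7:25686752-25687001 (plus strand), Smad3 at chr9:63757995-63758244 (minus), the first of 2 Tgfbr1 entries at chr4:47352972-47353221 (plus) and Tgfbr2 at chr9:116175364-116175613 (minus). Capitals mark the Zeb1 core CACCT or its reverse complement AGGTG.
Tgfb1: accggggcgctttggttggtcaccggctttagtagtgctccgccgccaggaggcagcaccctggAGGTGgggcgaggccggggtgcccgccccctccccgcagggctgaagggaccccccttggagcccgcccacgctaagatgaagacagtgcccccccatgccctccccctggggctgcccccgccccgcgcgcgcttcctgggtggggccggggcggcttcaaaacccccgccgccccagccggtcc
Smad3: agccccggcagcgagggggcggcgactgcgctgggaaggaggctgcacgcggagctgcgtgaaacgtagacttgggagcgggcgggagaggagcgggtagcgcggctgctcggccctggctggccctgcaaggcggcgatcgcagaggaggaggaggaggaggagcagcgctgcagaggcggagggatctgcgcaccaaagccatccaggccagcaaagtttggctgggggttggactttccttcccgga
Tgfbr1: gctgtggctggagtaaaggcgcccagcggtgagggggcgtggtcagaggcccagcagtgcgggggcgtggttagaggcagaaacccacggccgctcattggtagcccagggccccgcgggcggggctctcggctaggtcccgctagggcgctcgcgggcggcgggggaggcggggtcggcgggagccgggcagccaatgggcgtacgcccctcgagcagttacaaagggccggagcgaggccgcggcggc
Tgfbr2: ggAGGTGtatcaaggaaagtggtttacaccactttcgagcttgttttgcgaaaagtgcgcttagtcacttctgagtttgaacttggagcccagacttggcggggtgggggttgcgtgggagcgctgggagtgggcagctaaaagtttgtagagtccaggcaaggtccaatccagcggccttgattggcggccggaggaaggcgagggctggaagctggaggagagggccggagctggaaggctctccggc
The core occurred once in Tgfb1, starting at position -186 counted from the start site, and once in Tgfbr2, at -248. It was not found in these windows of Smad3 or Tgfbr1, nor in those of the second Tgfbr1 entry or of Tgfb2. On both strands, 46% of 32851 promoter windows of this length hold the core, so its presence in 2 of the 5 members with an entry is near the share over all promoters. The longer E-box CACCTG or CAGGTG, which contains the core, occurs in 17.2% of all windows and in none of the 6 entries of these members. The SMAD element CAGAC or GTCTG (42.2% of all windows) was in Tgfbr2, Tgfb2 and the second Tgfbr1 entry. The GC box GGGCGG or CCGCCC (32.7% of all) was found 5 times in Tgfb1 and 2 times each in Smad3 and the first Tgfbr1 entry. These are matches of letters, with no binding measured. Promoters of Tgfb3, Smad2, Smad4, Smad7 and Skil were not analysed here.

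Of the ligands, Tgfb1 had its lowest values on the ZEB D arrays. Tgfb1, the ligand that leukocytes mainly make, stood at 12.72, 12.94 and 12.88 on the SCR arrays, at 12.46, 12.08 and 12.90 on the arrays labelled ZEB C, and at 11.57, 12.15 and 11.11 on the ZEB D arrays. All ZEB D values were below all SCR values, while ZEB C #12 lay within the SCR range and ZEB C #10 and #11 below it. The ZEB D mean was 42.4% of SCR, a log2 difference of -1.24 ± 0.28 (SE, 95% interval -1.87 to -0.60) with an unadjusted p of 0.00169 and an adjusted p of 0.104 by limma, so it did not pass. For the arrays labelled ZEB C the difference was -0.37 ± 0.28 (upper 95% limit 0.27), limma adjusted p 0.885. ZEB D against the arrays labelled ZEB C gave -0.87 ± 0.28 (-1.51 to -0.23), limma adjusted p 0.27, and these 2 groups overlapped, since ZEB D #14 at 12.15 was above ZEB C #11 at 12.08. The ZEB D difference from SCR passed with array weights (-1.30, limma adjusted p 0.0279) and with the array set as a covariate (-1.33, limma adjusted p 0.0239). Those fits called 1076 and 772 probe sets for ZEB D against SCR, where the reported fit called 165. In the fits without 1 array Tgfb1 did not pass, at limma adjusted p-values of 0.0634 to 0.372. Over the first set alone, where ZEB D has only #13, the difference was -1.23. Whether fewer cells made the transcript or each cell held less of it cannot be told apart in such bulk RNA.

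The other 2 ligands had wide or flat values. Tgfb2 stood at 6.85, 7.50 and 6.99 in SCR, 7.17, 6.80 and 7.85 on the arrays labelled ZEB C and 7.34, 7.07 and 7.19 in ZEB D. Tgfb3 stood at 6.36, 6.37 and 6.12 in SCR, 6.28, 5.70 and 6.49 on the arrays labelled ZEB C and 6.05, 6.48 and 6.34 in ZEB D. All 3 groups overlapped for both genes, and the Tgfb3 means lay below the median array level. The differences from SCR ran from -0.13 to 0.16, with limma adjusted p-values of 0.921 to 0.994. Their 95% intervals, from -0.62 to 0.37 for Tgfb3 in the arrays labelled ZEB C to -0.46 to 0.78 for Tgfb2 there, leave differences of up to that size unresolved by 3 arrays per group.

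Both receptors were higher on the arrays labelled ZEB C than on SCR. Tgfbr1, the type I receptor kinase, stood at 8.99, 8.26 and 9.10 in SCR, at 10.22, 9.95 and 10.15 on the arrays labelled ZEB C, and at 10.22, 8.58 and 8.55 in ZEB D. Every array labelled ZEB C was above every SCR array. In ZEB D the array #13 matched the highest ZEB C value and the other two lay within the SCR range. The difference for the arrays labelled ZEB C was 1.32 ± 0.42 (0.37 to 2.28), 250% of SCR, with an unadjusted p of 0.012 and an adjusted p of 0.294 by limma. ZEB D differed from SCR by 0.33 ± 0.42 (-0.62 to 1.29, limma adjusted p 0.771). ZEB D against the arrays labelled ZEB C gave -0.99 ± 0.42 (-1.95 to -0.03, limma adjusted p 0.405). Leaving out ZEB D #13, this last difference became -1.54 with a limma adjusted p of 0.0401, ZEB D lay at -0.22 against SCR, and the ZEB C difference from SCR had a limma adjusted p of 0.0364. That array is in neither group of the ZEB C comparison with SCR. Without any other array the ZEB C difference did not pass, with limma adjusted p-values of up to 0.619. Over the 5 arrays of the first set alone ZEB D stood 1.18 above SCR, since its only array there is #13.

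Tgfbr2, the type II receptor that binds the ligand first, stood at 7.28, 7.27 and 7.65 in SCR, at 8.23, 8.10 and 7.90 on the arrays labelled ZEB C, and at 8.07, 7.51 and 7.48 in ZEB D. The arrays labelled ZEB C were again all above SCR, and ZEB D overlapped both groups. The difference was 0.68 ± 0.20 (0.22 to 1.13), 160% of SCR, with an unadjusted p of 0.00831 and an adjusted p of 0.241 by limma. With the array set as a covariate, the ZEB C differences passed for Tgfbr1 (limma adjusted p 0.0291) and for Tgfbr2 (0.0341, same fit). The set is drawn from the same values, and that fit called 875 probe sets for these arrays, where the reported fit called 185. ZEB D differed from SCR in Tgfbr2 by 0.29 ± 0.20 (-0.17 to 0.74, limma adjusted p 0.57), and from the arrays labelled ZEB C by -0.39 ± 0.20 (-0.85 to 0.07, limma adjusted p 0.501). Some markers of natural killer cells were higher in the same group. The summed log2 level of the 6 markers was 29.46 to 32.94 in SCR, 42.68 to 49.42 on the arrays labelled ZEB C and 31.56 to 34.08 in ZEB D. 1 of the 6 had a mean above the median array level, and the defining markers Ncr1 and Eomes had group means of 4.68 to 5.13. Ncr1 and Eomes differed from SCR by 0.08 and -0.22 in the arrays labelled ZEB C, and neither passed. Nkg7, Gzmb and Klrc1 rose there against SCR, with limma adjusted p-values of 0.0109 to 0.0157, and Klrb1c differed by 1.51 (limma adjusted p 0.249). Their part, and that of the Fcgr3 fall in the same arrays, in the receptor differences was not tested.

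Among the signal carriers Smad3 had the largest difference. Smad3, which the active receptor phosphorylates and which binds DNA itself, stood at 14.84, 14.45 and 14.83 in SCR, at 14.67, 14.58 and 13.97 on the arrays labelled ZEB C, and at 14.20, 13.19 and 12.95 in ZEB D. The ZEB D values all lay below SCR, with #13 the closest. The ZEB D mean was 41.8% of SCR, a difference of -1.26 ± 0.33 (-1.99 to -0.53) with an unadjusted p of 0.00366 and an adjusted p of 0.14 by limma. The arrays labelled ZEB C differed from SCR by -0.30 ± 0.33 (-1.03 to 0.43, limma adjusted p 0.955), and ZEB D from them by -0.96 ± 0.33 (-1.69 to -0.23, limma adjusted p 0.29). The ZEB D difference from SCR passed with array weights (-1.54, limma adjusted p 0.0123), with the array set as a covariate (-1.02, 0.0133) and without ZEB D #13 (-1.64, 0.0352). The weighted and covariate fits called 1076 and 772 probe sets, where the reported fit called 165. In the other fits without 1 array Smad3 did not pass, with limma adjusted p-values of up to 0.472. Over the first set alone, where ZEB D has only #13, the difference was -0.63. ZEB D differed from the arrays labelled ZEB C in Smad3 by -1.33 with array weights (limma adjusted p 0.0214).

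Smad2, the other receptor-activated SMAD of this branch, stood at 10.54, 10.38 and 10.68 in SCR, 10.78, 11.02 and 10.26 on the arrays labelled ZEB C and 10.92, 9.85 and 10.61 in ZEB D. Smad4, the shared partner that carries both into transcription complexes, stood at 13.40, 13.88 and 13.43 in SCR, 13.39, 13.65 and 14.19 on the arrays labelled ZEB C and 13.40, 13.77 and 13.77 in ZEB D. The groups overlapped for both. Smad2 differed from SCR by 0.15 ± 0.29 (-0.50 to 0.80) in the arrays labelled ZEB C and by -0.07 ± 0.29 (-0.72 to 0.58) in ZEB D, and Smad4 by 0.17 ± 0.24 (-0.36 to 0.70) and 0.08 ± 0.24 (-0.45 to 0.61). Their limma adjusted p-values were 0.918 to 0.996.

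Neither inhibitor passed the test, and both overlapped SCR with either hairpin. Skil, also known as SnoN, holds SMAD complexes inactive on DNA. It stood at 9.16, 9.26 and 9.88 in SCR, at 9.17, 8.81 and 8.76 on the arrays labelled ZEB C, and at 9.22, 8.19 and 8.15 in ZEB D. ZEB D #13 lay within the SCR range and the other two ZEB D arrays below it. The ZEB D difference was -0.91 ± 0.31 (-1.61 to -0.21), with an unadjusted p of 0.0163 and an adjusted p of 0.25 by limma, and that of the arrays labelled ZEB C -0.52 ± 0.31 (-1.22 to 0.18, limma adjusted p 0.778). Skil in ZEB D passed with array weights (-1.26, limma adjusted p 0.0363) and was -0.30 over the first set alone. Smad7, which blocks the type I receptor and is switched on by the pathway, stood at 6.09, 5.52 and 5.61 in SCR, at 5.86, 5.65 and 5.16 on the arrays labelled ZEB C and at 6.19, 5.16 and 5.28 in ZEB D. The Smad7 groups overlapped, with differences from SCR of -0.18 ± 0.30 (-0.87 to 0.50) and -0.20 ± 0.30 (-0.88 to 0.49). The mean of Smad7 was below the median array level.

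**Figure D2:**
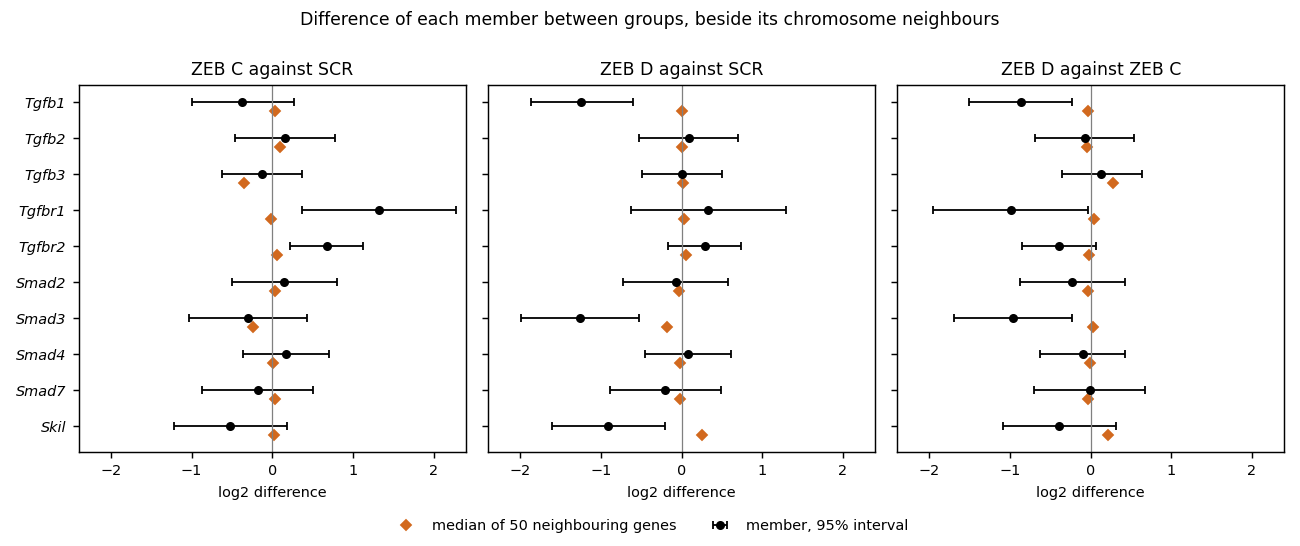
Log2 difference of each member between groups (points) with its 95% interval from limma (lines) and the median difference of its 50 neighbouring genes (diamonds), for the arrays labelled ZEB C against SCR, ZEB D against SCR and ZEB D against the arrays labelled ZEB C. The intervals of Tgfbr1 and Tgfbr2 lie above 0 in the first, and those of Tgfb1, Smad3 and Skil lie below 0 in the second, although none passed after adjustment.

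Neighbouring genes were read beside each member to show how far it differed from the genes around it. The 50 tested genes around Tgfb1 in the RefSeq GRCm38.p6 order split into 25 lower and 24 higher in ZEB D than in SCR, and 1 of the 50 had a lower difference than Tgfb1. All 50 neighbours of Tgfbr1 had a lower difference than Tgfbr1 in the arrays labelled ZEB C, with a median of -0.02, and 46 of 50 did around Tgfbr2 (median 0.06). The differences of these 3 members lay beyond those of at least 46 of their 50 neighbours. All 3 had an unadjusted limma p under 0.05 in the comparison given, and the neighbours were not matched for level, so this is a description only.

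Smad3, Tgfb3 and Skil lay in stretches whose medians were away from 0. Around Smad3 the median was -0.18 in ZEB D with 32 of 50 lower, and -0.24 in the arrays labelled ZEB C with 39 of 50 lower. Smad3 in ZEB D differed by -1.26, and 6 of the 50 were lower still. With neighbours limited to genes above the median level, a choice made after the data were seen, the median around Smad3 in ZEB D was -0.52. Around Tgfb3 it was -0.35 in the arrays labelled ZEB C, with 38 of 50 lower, where Tgfb3 differed by -0.13. Around Skil it was 0.26 in ZEB D with 43 of 50 higher, and Skil lay below all 50.

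The profile of Tgfb1 over the 9 arrays was compared with that of every probe set above the median level by the root-mean-square difference after centring each gene on its mean. Predicted genes (Gm and a number, or names ending in Rik) were passed over. The 5 closest of the others were Cnn2 (0.19 log2 units), Tpm1 (0.20), Rab11fip1 (0.20), Tuba8 (0.21) and Inpp5f (0.21). They were picked as the smallest values, and the median over all compared was 0.69. Cnn2 and Tpm1 encode proteins of the actin cytoskeleton. Their log2 differences from SCR were -0.42 and -0.64 on the arrays labelled ZEB C and -1.27 and -1.46 in ZEB D. Among the members the closest to Tgfb1 were Skil (0.52) and Smad3 (0.54), and Tgfbr1 was the farthest (0.98).

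**Figure D3:**
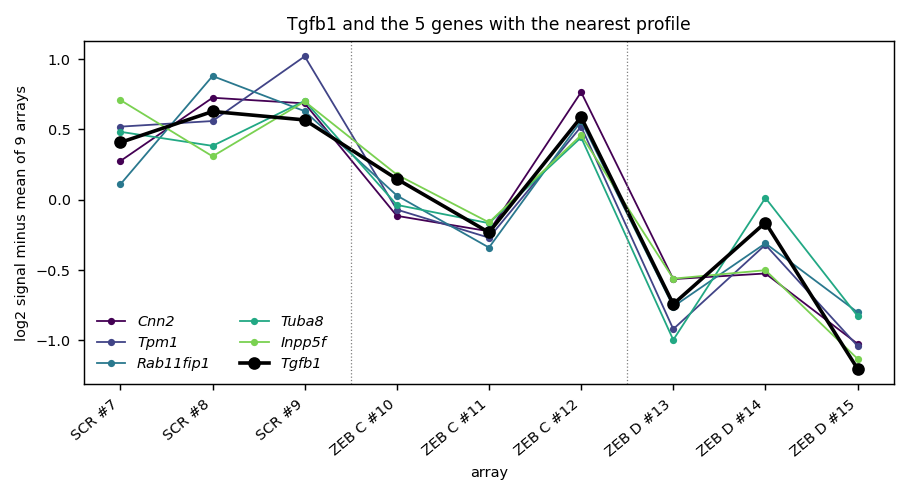
Log2 signal minus each gene's mean over the 9 arrays, by array, for Tgfb1 and the 5 genes with the smallest root-mean-square difference from it, predicted genes passed over. Each gene has its lowest array in ZEB D, while ZEB D #14 lies above ZEB C #11 for Tgfb1, Rab11fip1 and Tuba8.

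The rest of the pathway was read through 7 lists of 92 gene symbols, of which 86 were measured. Ctgf, an older symbol of the measured gene Ccn2, is counted among those not measured. Against SCR, 2 of the 86 rose and 0 fell in the arrays labelled ZEB C, beside 0.659% and 0.286% of all probe sets. In ZEB D 0 rose and 1 fell, beside 0.399% and 0.445%. ZEB D against the arrays labelled ZEB C gave 0 higher and 2 lower, beside 0.307% and 0.542%. The 3 medians were 0.04, -0.01 and -0.07, close to those over all probe sets. The ZEB C count was 0 without SCR #8, SCR #9, ZEB C #11 or ZEB D #15 and 1 without SCR #7, ZEB C #10, ZEB C #12 or ZEB D #14. The ZEB D count was 0 without SCR #7, #8 or #9, ZEB C #10, or ZEB D #14 or #15. The count between the hairpins was 0 without ZEB C #11 or ZEB D #15, and 1 without ZEB C #10. Of the lists, 4 had no member that passed limma's test in any comparison: latency and activation (13 of 13 measured), the other SMADs (4 of 4), corepressors and coactivators (12 of 13) and ubiquitin ligases and other inhibitors (11 of 11). At an unadjusted p under 0.05, those lists held 1, 1, 1 and 4 genes for the arrays labelled ZEB C, beside 8.77% of all probe sets. They held 2, 0, 3 and 4 for ZEB D, beside 13.6%, and 0, 2, 2 and 2 for ZEB D against the arrays labelled ZEB C, beside 11.7%. Over all 86 genes the 3 counts were 15, 14 and 13. The name of the list of ubiquitin ligases and other inhibitors does not mean that each of its genes restrains the pathway. It also holds deubiquitinases such as Usp15.

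**Figure D4:**
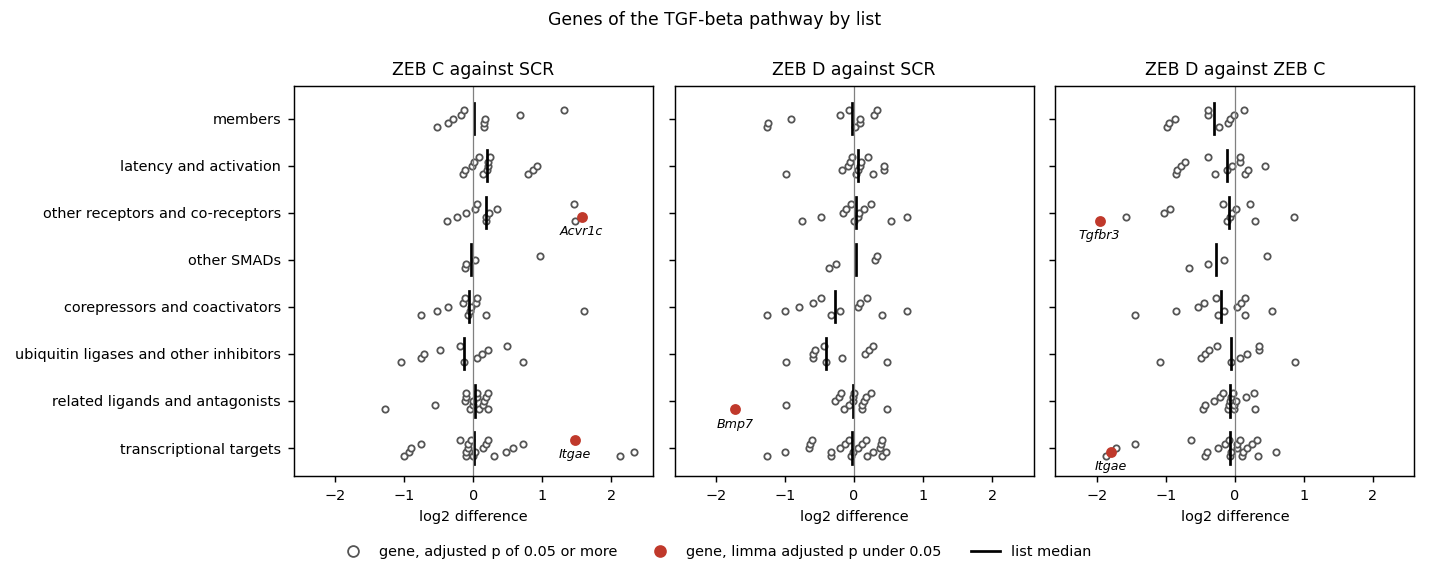
Log2 differences from limma of the members and of the measured genes of each of the 7 pathway lists (points) in the 3 comparisons, with the list median (vertical line) and the genes that passed the test named. Acvr1c and Itgae stand out in the arrays labelled ZEB C against SCR, Bmp7 in ZEB D against SCR, and Tgfbr3 and Itgae in ZEB D against the arrays labelled ZEB C.

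2 receptors other than the members passed. Acvr1c, a type I receptor for activins and Nodal, stood at 6.11, 6.08 and 5.82 in SCR, 7.74, 8.08 and 6.89 on the arrays labelled ZEB C and 6.70, 6.63 and 6.30 in ZEB D. The arrays labelled ZEB C were all above SCR. Acvr1c rose by 1.57 ± 0.28 (limma adjusted p 0.0412) in them, to 296% of SCR, and differed by 0.54 (adjusted p 0.443) in ZEB D. The call was lost with array medians subtracted (limma adjusted p 0.0597), with quantile normalization repeated (0.0571) and with only the 6 arrays of the 2 groups (0.098). It was also lost when SCR #7, #8 or #9, ZEB C #10 or #11, or ZEB D #14 or #15 was left out, at limma adjusted p-values of 0.0698 to 0.183. The mean of Acvr1c over all arrays was below the median array level, so a fit limited to brighter probe sets did not hold it.

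Tgfbr3, the co-receptor also called betaglycan that presents ligand to Tgfbr2, stood at 8.00, 6.89 and 7.09 in SCR, 8.57, 8.91 and 8.92 on the arrays labelled ZEB C and 6.64, 7.18 and 6.71 in ZEB D. Every array labelled ZEB C was above all others. Tgfbr3 was lower in ZEB D than in those arrays by a log2 difference of -1.96 ± 0.29 (limma adjusted p 0.0174). Its difference from SCR was 1.47 ± 0.29 in the arrays labelled ZEB C (limma adjusted p 0.0547) and -0.48 in ZEB D (0.5). The call was lost without ZEB C #10 (limma adjusted p 0.0593), ZEB C #11 (0.0751) or ZEB D #15 (0.0977), and the adjusted p was at the threshold, 0.05 after rounding, without ZEB D #13. Of the co-receptors not called, Eng differed by 0.76 ± 0.21 in ZEB D (limma adjusted p 0.161) and the type I receptor Acvr1 by -0.76 (adjusted p 0.284). Eng was dim, at 3.99 to 5.40 over all arrays.

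Itgae was the called gene of the target list. It encodes the alpha E integrin chain of CD103, which TGF-beta induces on T cells, and stood at 6.30, 6.43 and 6.31 in SCR, 7.43, 8.21 and 7.82 on the arrays labelled ZEB C and 5.81, 6.55 and 5.70 in ZEB D. The arrays labelled ZEB C were above all others. Itgae rose by 1.47 ± 0.26 (limma adjusted p 0.0385) against SCR in them and was lower in ZEB D than in them, with a difference of -1.80 ± 0.26 (limma adjusted p 0.0161). Leaving out SCR #7, #8 or #9, ZEB C #11 or #12, or ZEB D #15 took the first call away, at limma adjusted p-values of 0.057 to 0.165. The second was lost with only the 6 arrays of the 2 groups (0.0762) and without ZEB C #11 (0.0584) or ZEB D #15 (0.0881). Itgae too had a mean over all arrays below the median array level and was not in the fit limited to brighter probe sets. Of the natural killer markers 3 of 6 rose in the same arrays and Fcgr3 fell, as given above, and their part in the Itgae difference was not tested.

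Bmp7, a bone morphogenetic protein, was the called gene among the related ligands. It stood at 10.27, 10.40 and 11.13 in SCR, 9.12, 9.70 and 9.15 on the arrays labelled ZEB C and 9.07, 8.43 and 9.10 in ZEB D. Both hairpin groups lay wholly below SCR. Bmp7 fell by 1.73 ± 0.29 (limma adjusted p 0.0326) in ZEB D, to 30.1% of SCR, and differed by -1.28 ± 0.29 (adjusted p 0.0943) in the arrays labelled ZEB C. The ZEB D call was lost with only the 6 arrays of the 2 groups (limma adjusted p 0.0667). Without SCR #7, #8 or #9, ZEB C #10, or ZEB D #14 or #15 it was lost at limma adjusted p-values of 0.0624 to 0.138.

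**Figure D5:**
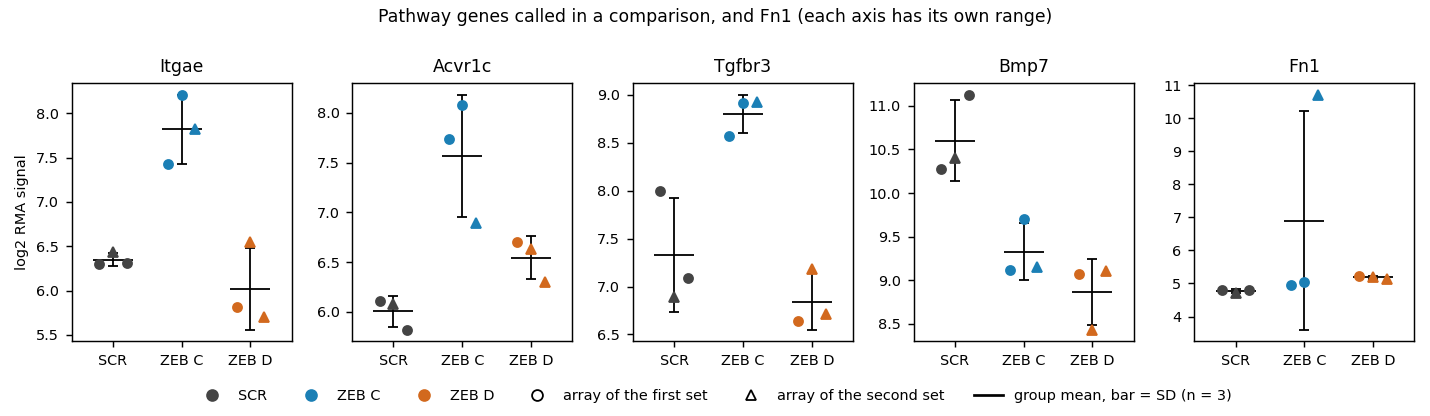
Log2 signal on each of the 9 arrays (circles for the first array set, triangles for the second), by group, with the mean (horizontal line) and SD (vertical bar, n = 3), for the 4 pathway genes that passed limma's test and for Fn1, which was at 10.71 on ZEB C #12. The arrays labelled ZEB C are above SCR for Acvr1c, Tgfbr3 and Itgae, and both hairpin groups are below SCR for Bmp7.

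In each list without a called gene in a comparison, the 2 largest differences are given, so that larger ones in lists with a called gene are not among them, such as Id2 (2.33) and Fn1 (2.13) in the arrays labelled ZEB C and Acvr2a (1.46) there, none of which passed and all of which were highest on ZEB C #12. Nrros, which tethers latent TGF-beta on myeloid cells and microglia, stood at 10.78, 10.47 and 11.08 in SCR, 10.98, 11.12 and 9.79 on the arrays labelled ZEB C and 10.52, 9.64 and 9.22 in ZEB D, a difference of -0.98 ± 0.41 from SCR in ZEB D (limma adjusted p 0.344). Smad5, which carries bone morphogenetic protein signals, was at 12.92, 12.82 and 12.79 on the arrays labelled ZEB C against 11.93, 11.56 and 12.14 in SCR, a difference of 0.97 ± 0.19 (limma adjusted p 0.0547). Ski, the corepressor related to Skil, differed by -1.26 ± 0.45 from SCR in ZEB D (limma adjusted p 0.265) and by 0.19 in the arrays labelled ZEB C. The groups overlapped for Nrros in both comparisons with SCR, and the Smad5 arrays labelled ZEB C were all above SCR.

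Other values came from regulators of SMAD proteins. Runx1, a transcription factor of blood formation that binds SMADs, differed by 1.61 ± 0.52 in the arrays labelled ZEB C (limma adjusted p 0.299). Ppm1a, a phosphatase of SMADs, differed by -1.05 ± 0.28 there (limma adjusted p 0.178). Usp15, a deubiquitinase of the receptor and SMADs, differed by -0.98 ± 0.20 in ZEB D (limma adjusted p 0.0764). Rnf111, a ubiquitin ligase, differed by -0.76 in the arrays labelled ZEB C and -0.59 in ZEB D, the latter being 0.06 over the first set alone. Tgif1, a corepressor that TGF-beta also induces, differed by -0.76 in the arrays labelled ZEB C, and was at 50.1% of SCR in ZEB D. Without 1 array the first of these Tgif1 values ran from -1.19 (without ZEB C #10) to -0.39 (without ZEB C #12). The growth factor Gdf11 differed by -0.55 and -0.99 in the same order. Smad1, of the bone morphogenetic protein branch, differed by -0.36 in ZEB D, which was 0.12 over the first set alone and -0.08 without ZEB D #14. Smad6, an inhibitor of that branch, differed by -0.12 in the arrays labelled ZEB C, with a change of sign under 3 alternatives, and by 0.33 in ZEB D. Dcn and Bgn, matrix proteins that bind the ligand, differed by 0.92 and 0.87 in the arrays labelled ZEB C, and by 0.51 and -0.15 without ZEB C #12. Ltbp4, a binding protein of latent ligand, differed by 0.44 in ZEB D. Thbs1, an activator of latent ligand, differed by -0.85 between ZEB D and the arrays labelled ZEB C, and without ZEB C #12, at 7.36, by less than 0.01. ZEB D differed from the arrays labelled ZEB C by -1.45 in Ski, -0.85 in Runx1, -0.84 in Nrros and 0.87 in Ppm1a. The same comparison gave -0.66 for Smad5, 0.46 for Smad6, -0.46 for Bmp7 and -0.44 for Gdf11, and Wwp1 is given below. None of these passed limma's test in the comparisons named.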

How the data were processed

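RNA of 9 arrays (3 per group) was measured on a biotin-labelled, 1-colour platform, for which the submitters' processing notes list RMA and the Transcriptome Analysis Console, with no version. The values deposited were linear signals written without their decimal point, so each of 199854 cells was returned to the log2 value, a multiple of 0.01, that the authors' signal implied (tolerance 1e-06 steps, farthest accepted 9.1e-13, nearest rejected 0.036). Recovered log2 values ran from 3.26 to 17.44. All 9 columns were used. The genome build of the platform annotation was not given in the sources used here.

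Of 22206 probe sets, 19572 had 1 gene symbol, 0 several and 2634 none, and these unnamed sets were not tested. limma 3.58.1 in R 4.3.3 fitted a mean per group over all 9 arrays, with empirical Bayes moderation and Benjamini-Hochberg adjustment over 19572 probe sets. Calls needed an adjusted p under 0.05. The fit was run on simulated data with independent noise on each array. That noise lacks the component these arrays share, so the run does not give the error rate here. Named genes were the members, Zeb1 and the called genes of each list or else its 2 largest differences in a comparison. The 5 genes closest to Tgfb1, predicted genes passed over, were also named. The members and lists were chosen with earlier results of these data known. The lists covered latency and activation, other receptors, other SMADs, corepressors and coactivators, ubiquitin ligases, related ligands and targets, with markers of 7 cell types. Alternatives changed the filter, normalization, variance prior, array weights, arrays in the fit and threshold. The array set comes from the same values it adjusts. Nothing in the labels tells whether the 3 arrays of each group were infected apart, so the p-values reflect only how these arrays vary, possibly for technical reasons. The number of arrays limits the precision.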

Additional observations from a re-analysis of the deposited data

Results flagged for a closer look

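Pathway genes in which the hairpins differed directly follow. Tgfbr3 differed by -1.96 (log2, ZEB D minus the arrays labelled ZEB C) and Itgae by -1.80 in the direct comparison of the hairpins, both called by limma (adjusted p 0.0174 and 0.0161). Wwp1, a ubiquitin ligase of the pathway, differed by -1.08: its arrays labelled ZEB C (9.81, 9.73 and 10.16) all lay above the SCR mean of 9.41 and its ZEB D arrays (8.69, 9.18 and 8.59) all below it. That difference was tested and did not pass limma's threshold (adjusted p 0.0723).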

How the results depend on the processing

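No paired analysis was possible because the groups share no replicate numbers. Of 504 member values under alternatives, 12 passed the threshold where the reported value did not. Among the rest 27 moved by over 1 SE, a count that leaves out any such shift among the 12. Called members for the arrays labelled ZEB C against SCR, 0 as reported, were 2 with the array set as a covariate and 1 over the first set alone. For ZEB D against SCR they were 3 with array weights and 2 with the covariate, and for ZEB D against the arrays labelled ZEB C 1 with array weights. These counts are to be read beside the calls over all 19572 probe sets. For the arrays labelled ZEB C those rose from 185 to 875 with the covariate. For ZEB D they rose from 165 to 1076 and 772, and between the hairpins from 166 to 833. Leaving out each array gave 0 to 1 in each comparison, the 1 being without ZEB D #13. Probe sets called for the arrays labelled ZEB C, 185, were 572 with array weights, 875 with the covariate, 424 over the first set, 316 at an adjusted p under 0.1 and 43 to 214 without 1 array (104 without SCR #7, 84 without #8, 43 without #9, 103 without ZEB C #10, 92 without #11 and 117 without ZEB D #15). For ZEB D against SCR, 165, they were 1076, 772, 273 and 300 in the same order, 68 with only the 6 arrays compared and 14 to 213 without 1 array (58 without SCR #7, 87 without #8, 14 without #9, 93 without ZEB C #10, 103 without #11, 80 without ZEB D #14 and 17 without #15). For ZEB D against the arrays labelled ZEB C, 166, they were 833 with array weights, 700 with the covariate, 313 at 0.1, 81 with 6 arrays and 49 to 162 without 1 array (62 without ZEB C #10, 84 without #11 and 49 without ZEB D #15). The fall of Zeb1 in ZEB D lost its call with an intensity trend (-1.05, limma adjusted p 0.0796) and with 6 arrays (-1.05, 0.0626). Over the first set, where ZEB D has only #13, it was -0.98. Without 1 array it ran from -1.13 to -0.98, with 5 of 9 such calls lost. Called genes of the pathway lists, 2, 1 and 2 in the 3 comparisons, were 6, 6 and 7 with array weights, 9, 5 and 7 with the covariate, and 0 to 2, 0 to 1 and 0 to 3 without 1 array. The cause of these changes was not tested. Tgfb3 and Smad7 drop out under the filter on dim probe sets, as do the called pathway genes Acvr1c and Itgae. Each member has 1 probe set, so no other could be tried. Of 90 neighbour medians under alternatives, 1 moved. Dim probe sets limit what can be seen of Tgfb3 and Smad7.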

Other observations

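ZEB C #12 carried high values of several pathway genes. Of 96 pathway genes and members, 7 (7.29%) lay over 1 log2 unit above all other arrays on it, beside 0.991% of all probe sets. On any other array 0 of the 96 did, a pattern noticed after the data were seen. Fn1, the fibronectin gene, stood at 10.71 there and at 4.70 to 5.23 on the other arrays. Bgn was at 8.31, Thbs1 at 7.36, Dcn at 7.21, Pmepa1 at 8.27, Id2 at 11.76 and Acvr2a at 14.17 on ZEB C #12. None of the 10 core members was among them. The summed log2 level of 5 fibroblast markers, 2 of them above the median level, was 31.96 to 33.82 in SCR, 31.38 to 34.44 on the arrays labelled ZEB C and 32.45 to 33.97 in ZEB D, with the highest value of Col1a1 at 8.86 on ZEB C #12. Their part in these values was not tested. Of the other marker lists, 0 of 4 B cell, 2 of 4 megakaryocyte and 1 of 3 erythroid markers had a mean above the median level.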
